A study of Bos taurus with 6 samples.

Results

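Testis RNA of bull calves aged 8 weeks was compared with that of calves aged 2 weeks. Each age had 2 arrays, so the comparison used 4 of the 6 arrays, and the 2 arrays from calves aged 4 weeks served only to show whether a difference was gradual. All samples were whole testis tissue, with no genotype, treatment or sorting named. Total RNA was labelled with biotin and hybridised to Affymetrix bovine GeneChips, whose probe sets each report on a transcript. The labels number the replicates of an age without saying that they came from separate calves, so p-values take in no more than the spread of these samples, and that spread may be technical. The comparison covered the 9249 probe sets that carried 1 gene symbol and had a mean signal over 30 across the 6 arrays, out of 13292 with 1 symbol and 24016 without controls. They stood for 7084 genes. Where a gene had several probe sets, the one with the highest mean signal represented it. Values are deposited signals, a scaled brightness per probe set, given per array in replicate order. Differences are on the scale of log2(signal + 16), as 8 minus 2 weeks, with the standard error (SE) of the fit, and n = 2 arrays per age.

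In these weeks the calf testis makes no sperm. Its seminiferous cords are built of Sertoli cells, which enclose and nurse the germ cells and later seal the tubule with tight junctions, the blood-testis barrier. Gonocytes, the fetal type of germ cell, give way to spermatogonia inside the cords. Leydig cells, which make androgens and INSL3, lie between the cords with vessels, peritubular muscle cells and connective tissue.

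The defining markers of testis were present on every array. AMH, the hormone of immature Sertoli cells, read between 1941.7 and 2755.5, and INSL3 between 5153.2 and 7694.6. One array stood apart from the rest. Across the named probe sets, log2 values of 2wk replicate 2 correlated at 0.921 to 0.934 with the other 5 arrays, which correlated at 0.962 to 0.978 among themselves. The 2 arrays of an age lay 1 log2 unit or more apart for 617 named probe sets at 2 weeks, for 194 at 4 weeks and for 106 at 8 weeks. The 8-week mean differed by 1 log2 unit or more from 2wk replicate 1 for 103 named probe sets and from 2wk replicate 2 for 642.

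Many transcripts separated the 2 ages, mostly by small amounts. Both 8-week arrays lay above both 2-week arrays for 1438 named probe sets (15.5%), and both lay below for 2103 (22.7%). Counted by gene these were 1058 of 7084 (14.9%) higher and 1650 (23.3%) lower. The median size of the difference was 0.39 log2 units in either direction. The gap, the distance on the log2 scale between the nearest arrays of the 2 ages, had a median of 0.118 among the higher and 0.140 among the lower probe sets. A gap of at least 0.5 was found for 66 higher and 115 lower probe sets, and a gap of at least 1 for 12 and 14. In limma, 0 of 14626 probe sets passed an adjusted p of 0.05 (0%), with a smallest adjusted p of 0.0758. Taking p without adjustment, 513 probe sets fell under 0.05 on the higher side (3.51%) and 493 on the lower (3.37%). No gene named here therefore passed the test, and "higher" and "lower" below describe where the arrays lay. The count depended on a single array: without 2wk replicate 1, which leaves 2wk replicate 2 alone at its age and assumes that it varies like the other ages, 1917 passed (1374 higher and 543 lower). Of those, 1032 (53.8%) had no overlap with 2wk replicate 1 included. Without 2wk replicate 2, 1 probe set passed, which carries several symbols.

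**Figure D1:**
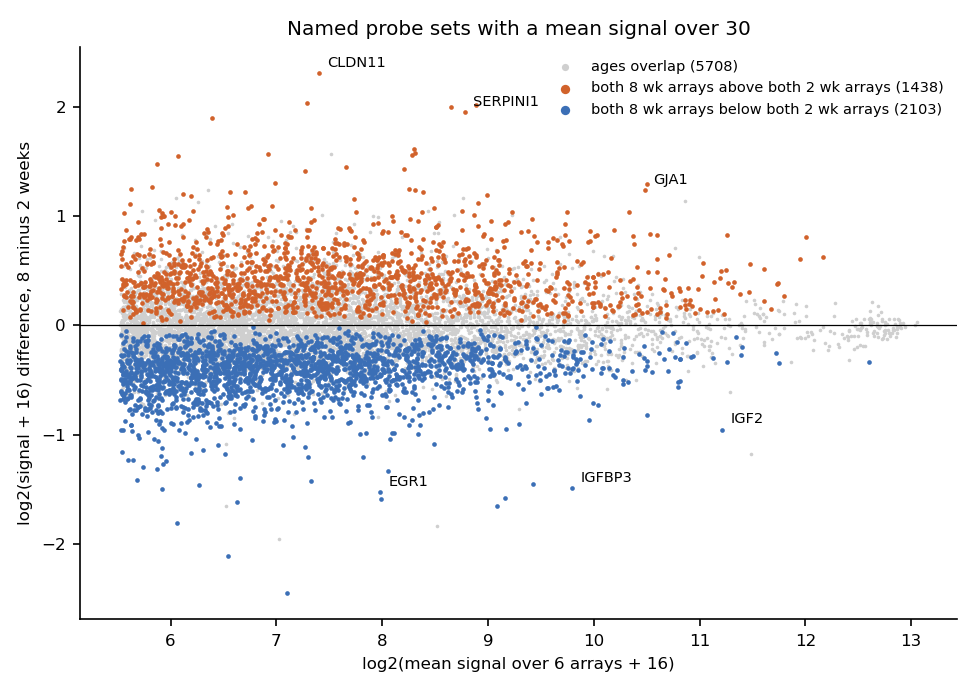
Difference between 8 and 2 weeks on the log2(signal + 16) scale (vertical) against log2(mean signal over the 6 arrays + 16) (horizontal) for the 9249 named probe sets, each point 1 probe set. The 1438 orange points had both 8-week arrays above both 2-week arrays and the 2103 blue points had both below, while grey points overlapped. CLDN11 has the largest positive difference, 2.31.

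Differences of at least 1 log2 unit were found in 54 higher and 42 lower probe sets without overlap, and in another 18 whose ages overlapped. These counts take in probe sets, such as PTI and TMEM130, with both arrays of an age at or below the highest bacterial control signal, 28.1. The sizes of those probe sets are not read. The 2 arrays at 2 weeks themselves lay at least 1 log2 unit apart in 16 of the 54 and 6 of the 42, and in every one of these the array farther from 8 weeks was 2wk replicate 2. The RNA splicing genes PNISR and SREK1 are examples, chosen after their values were seen. PNISR read 480.9 and 110.1 at 2 weeks against 507.0 and 495.9 at 8 weeks, with a gap of 0.04. SREK1 read 604.0 and 182.3, then 707.3 and 702.0. In both genes 2wk replicate 1 lay near the 8-week arrays. Ordering genes by the gap rather than by the mean difference places such cases low, and the genes below were taken in that order, the 25 with the widest gap in each direction and up to 6 from each gene list. The adjusted p of these 50 genes in limma lay between 0.132 and 0.678.

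**Figure D2:**
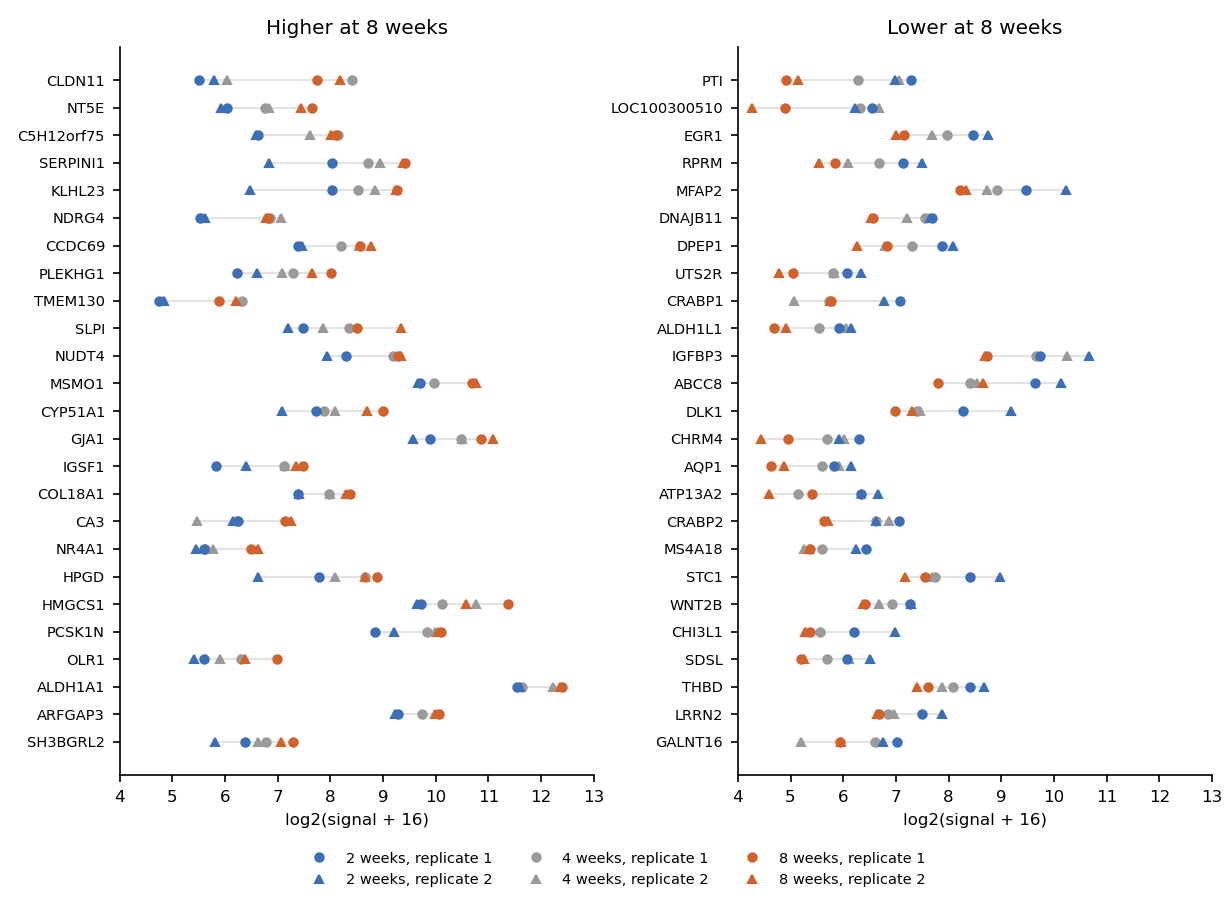
Signals of the 25 genes with the widest gap in each direction, as log2(signal + 16), 1 point per array, with colour for age and shape for replicate. Orange (8 weeks) and blue (2 weeks) do not overlap in any of these genes, by the rule that chose them, and the grey 4-week points lie between them for both arrays in 15 of the 25 higher and 10 of the 25 lower genes.

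Junction genes of the seminiferous cords held the widest gap. CLDN11, the claudin that forms the tight junctions between Sertoli cells, read 29.7 and 39.7 at 2 weeks against 199.7 and 276.1 at 8 weeks, a difference of 2.31 ± 0.58 (SE). Its other probe set also separated the ages, at 11.8 and 5.3 against 58.2 and 45.8. The 4-week arrays disagreed with each other for CLDN11, 1 above both 8-week arrays (325.8) and 1 near the 2-week level (49.5). GJA1, the gap junction protein connexin 43 that couples Sertoli cells, went in order of age in every array, from 935.4 and 740.0 over 1404.5 and 1428.8 to 1836.5 and 2152.6 (1.24 ± 0.21). The mesenchymal cadherin CDH11 read 833.4 and 858.0, then 910.0 and 999.1, then 1115.1 and 1098.6, although its other probe set overlapped between the ages. CLDN5, the claudin of endothelium, ran the other way, from 369.5 and 572.5 to 177.2 and 281.1. The list of 21 measured junction genes split, with 5 higher and 6 lower (23.8% and 28.6%, beside 14.9% and 23.3% of all genes). Its median difference was 0.02 (-0.03 without 2wk replicate 2 and 0.01 without 2wk replicate 1), beside -0.06 over all genes.

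Other Sertoli cell genes mostly overlapped between the ages. Of 17 measured Sertoli markers, CLDN11 and GJA1 were higher, while THRA and NR0B1 were lower. That was 11.8% each way, beside 14.9% higher and 23.3% lower among all genes. The median was 0.03 (0.16 without 2wk replicate 2 and -0.14 without 2wk replicate 1). The inhibin alpha gene INHA, whose protein restrains follicle-stimulating hormone, read 4725.3 and 6165.8 at 2 weeks against 5982.0 and 5139.9 at 8 weeks. FSHR, the receptor for that hormone, read 170.2 and 139.3 against 161.6 and 115.6. THRA, the thyroid hormone receptor alpha, read 234.1 and 329.5 at 2 weeks against 141.3 and 184.3 at 8 weeks (-0.73 ± 0.26). In whole tissue, fewer cells of a type and less RNA per cell cannot be told apart. Without 2wk replicate 2, 8 Sertoli markers were higher and 3 lower. Over all genes that comparison gave 35.1% in each direction and a median of -0.01, against -0.17 without 2wk replicate 1, and it gives more of both since a single array at 2 weeks is easier to clear.

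Of 19 Leydig cell genes 3 were higher and 3 lower (15.8% each, beside 14.9% and 23.3% of all genes). The median was 0.05 (0.16 without 2wk replicate 2 and -0.17 without 2wk replicate 1), so that its sign turned with the 2-week array kept. Over all genes the medians in those comparisons were -0.01 and -0.17. LHCGR, the receptor through which luteinizing hormone drives androgen synthesis, read 32.6 and 37.3 at 2 weeks against 56.3 and 53.8 at 8 weeks (0.48 ± 0.32). Its second probe set read 21.1 and 12.7 against 53.7 and 45.6, both 2-week values lying under the highest bacterial control signal on the arrays, 28.1. No size was read from an age whose arrays both lay at or below that level, as was also so at 2 weeks for the dimmer probe set of CLDN11. NR5A1, the transcription factor that drives steroidogenic genes, was lower at 8 weeks, at 365.5 and 464.5 against 334.2 and 308.9. Its other probe sets also ran lower, at 263.2 and 332.9 against 253.6 and 192.3 and at 94.2 and 116.6 against 68.4 and 72.9. The steroidogenic genes STAR, CYP11A1, CYP17A1 and HSD3B1 overlapped between the ages, with differences of 0.20, 0.12, 0.23 and -0.49. AKR1C4, an aldo-keto reductase of steroid metabolism, could not be given a direction. Its brightest probe set was higher at 8 weeks (628.6 and 692.8 against 715.7 and 1063.1), and its other one was lower (189.2 and 205.7 against 84.0 and 69.7).

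Among 14 measured germ cell genes 5 were higher and 2 lower (35.7% and 14.3%, beside 14.9% and 23.3% of all genes). Their median was -0.09 (0.08 without 2wk replicate 2 and -0.05 without 2wk replicate 1). HSPA2, a chaperone of meiotic germ cells, followed age in every array, from 87.9 and 110.7 over 144.1 and 124.6 to 166.4 and 178.8 (0.72 ± 0.23). TDRD7, a tudor protein of germ granules, did the same within a narrow range, from 83.8 and 93.2 over 102.2 and 98.5 to 110.7 and 113.3. TEX12, a protein of the synaptonemal complex, read 95.2 and 94.3 at 2 weeks against 115.0 and 151.0 at 8 weeks. KIT, the stem cell factor receptor of spermatogonia and Leydig cells, read 274.2 and 227.8 against 291.3 and 321.0, and 1 of its 2 other probe sets also separated the ages (48.5 and 50 against 86.7 and 71.8). The lower members were EPCAM, an adhesion protein of gonocytes (55.5 and 72.9 against 38.7 and 47.4), and MAEL, which silences transposons. UCHL1, a gonocyte and spermatogonial marker, and POU5F1, a pluripotency factor, overlapped between the ages.

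Sterol synthesis was the list with the highest share of higher genes. Of its 16 measured members 8 were higher at 8 weeks, which is 50% against 14.9% of all genes, 0 were lower, and the median difference was 0.45. The pathway turns acetyl-CoA into cholesterol, the substrate of steroid hormones. HMGCS1, which makes hydroxymethylglutaryl-CoA at its start, read 832.7 and 781.4 at 2 weeks against 2634.7 and 1519.6 at 8 weeks (1.29 ± 0.29). Squalene epoxidase, SQLE, read 236.1 and 271.1 against 526.8 and 361.7. LSS, which closes the sterol ring, read 56.6 and 76.0 against 162.8 and 105.2, while its dimmer probe set overlapped. The next enzymes act on lanosterol and its products. CYP51A1, the lanosterol demethylase, read 195.8 and 120.1 against 493.5 and 396.5 (1.43 ± 0.27), with both 4-week arrays in between at 218.2 and 255.3. MSMO1, the sterol C4-methyl oxidase, read 819.4 and 792.3 against 1633.6 and 1713.4 (1.04 ± 0.26).

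The remaining higher members of this pathway had narrow gaps. NSDHL, TM7SF2 and DHCR7, which complete the sterol, were higher with differences of 0.48, 0.64 and 0.81, but 2wk replicate 2 of DHCR7 (147.4) lay next to 8wk replicate 2 (148.3). The mevalonate pathway enzymes MVK, PMVK and MVD, between HMGCS1 and squalene, overlapped, with differences of -0.38, -0.18 and -0.03. Per array, the list's mean relative to its own average over 6 arrays began at -0.46 and -0.06 at 2 weeks, then came to -0.26 and 0.28, and at 8 weeks to 0.37 and 0.12. The 4-week arrays thus lay on different sides of that average. The median was 0.81 without 2wk replicate 2 and 0.16 without 2wk replicate 1. Without 2wk replicate 2, 12 of 16 were higher (75%, beside 35.1% of all genes in that comparison).

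**Figure D3:**
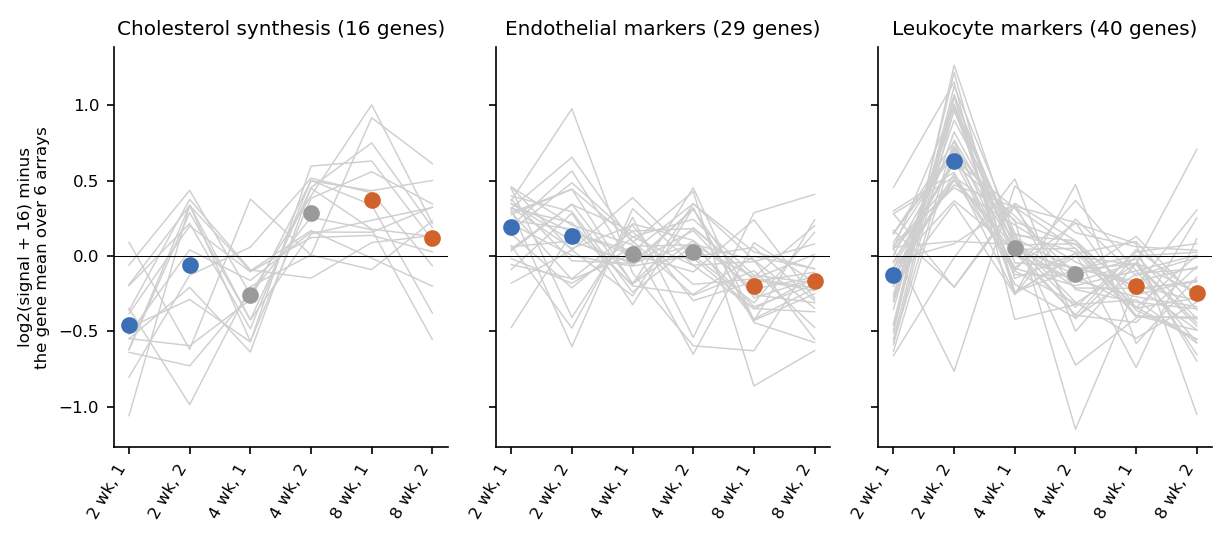
Members of 3 gene lists by array (grey lines, 1 gene each, as log2(signal + 16) minus the gene's mean over the 6 arrays), with the list mean as a dot coloured by age; tick labels give age and replicate. Endothelial means run from 0.20 and 0.13 at 2 weeks to -0.20 and -0.17 at 8 weeks, whereas the leukocyte mean is 0.63 in 2wk replicate 2 alone.

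Genes that handle finished cholesterol mostly overlapped, with 1 of 19 higher and 3 lower (5.26% and 15.8%, beside 14.9% and 23.3% of all genes). Their median was -0.03 (-0.04 without 2wk replicate 2 and -0.05 without 2wk replicate 1). SREBF1, a regulator of lipid synthesis, read 497.3 and 491.6 against 483.4 and 475.7 by its brightest probe set. Its other probe sets overlapped, at 49.2 and 120.9 against 182.0 and 99.8 and at 67.5 and 94.7 against 91.7 and 59.9. Of 18 genes of fatty acid synthesis 5 were higher and 2 lower (27.8% and 11.1%, beside 14.9% and 23.3% of all genes). Their median of 0.12 changed sign with 1 array. It was 0.15 without 2wk replicate 2 and -0.06 without 2wk replicate 1, beside -0.01 and -0.17 over all genes. ME1, the malic enzyme that supplies NADPH, was gradual, from 295.9 and 329.6 over 392.2 and 433.3 to 504.6 and 493.2 (0.65 ± 0.21), although its dimmer probe set read 255.9 and 155.2 against 269.1 and 252.2. SCD, the stearoyl-CoA desaturase, read 491.0 and 588.0 against 853.6 and 730.3. In the other direction, the acyltransferase AGPAT2 read 69.0 and 49.8 against 22.6 and 33.5, and the acyl-CoA synthetase ACSL5 read 251.8 and 364.5 against 199.1 and 177.5. HPGD, which inactivates prostaglandins, was higher with both of its probe sets, at 204.5 and 83.1 against 457.4 and 387.1 (1.56 ± 0.36) and at 64.2 and 28.2 against 254.4 and 204.5 (2.04).

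Retinoid genes included 1 higher gene and 7 lower ones. Retinoic acid, made from retinol by aldehyde dehydrogenases and carried in the cell by binding proteins, governs germ cell entry into meiosis. ALDH1A1, an enzyme that makes it, read 2950.9 and 3086.4 at 2 weeks against 5378.8 and 5233.4 at 8 weeks (0.81 ± 0.21). The binding protein CRABP1 read 118.2 and 93.5 against 38.2 and 37.5 (-1.17 ± 0.30), and its 4-week values of 37.2 and 17.4 were already at or below the 8-week level. CRABP2, the other binding protein, read 118.0 and 82.4 against 33.6 and 36.2 (-1.17 ± 0.26), but its 4-week values of 82.0 and 100.4 were still at the 2-week level. The pair thus had like end points and differed in where the 4-week arrays lay, which was not tested. RBP4 and STRA6, the plasma carrier of retinol and its membrane receptor, were lower with gaps of 0.24 and 0.18. The 7 lower genes were 46.7% of the 15 measured, against 23.3% of all genes, with a median of -0.34, which was -0.23 without 2wk replicate 2 and -0.54 without 2wk replicate 1.

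Genes of the insulin-like growth factor system were lower where they differed. IGFBP3, the main binding protein of insulin-like growth factors, read 834.8 and 1611.1 at 2 weeks against 407.6 and 395.9 at 8 weeks (-1.49 ± 0.31), and its second probe set read 637.0 and 1332.6 against 326.2 and 328.3. Its 4-week values, 795.8 and 1201.2, were still near those of 2 weeks. IGF2, the imprinted fetal growth factor, was gradual by its brightest probe set alone, from 2452.6 and 3882.6 over 2295.2 and 2344.9 to 1783.7 and 1405.7 (-0.96 ± 0.24). Its second probe set read 1517.7 and 1552.9, then 1528.8 and 2289.9, then 948.9 and 781.3, with no 4-week array between the ages. STC1, a secreted glycoprotein hormone, read 324.2 and 488.1, then 198.8 and 189.7, then 170.9 and 128.8 (-1.33 ± 0.26). The list had 6 of 14 lower (42.9% against 23.3% of all genes), 0 higher and a median of -0.16 (-0.21 without 2wk replicate 2 and -0.31 without 2wk replicate 1). Without 2wk replicate 2, 4 were higher and 9 lower (28.6% and 64.3%, beside 35.1% each way over all genes in that comparison).

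DLK1, a membrane protein of fetal and progenitor cells that binds Notch, read 294.1 and 569.5 at 2 weeks against 111.1 and 141.2 at 8 weeks (-1.59 ± 0.30). Most of that difference was present by 4 weeks, at 153.8 and 158.6. Among imprinted genes, 6 of 19 were lower and 2 higher (31.6% and 10.5%, beside 23.3% and 14.9% of all genes). Their median was -0.08 (-0.03 without 2wk replicate 2 and -0.22 without 2wk replicate 1). NDN, a growth suppressor of neurons, read 396.4 and 432.0 at 2 weeks against 313.0 and 317.4 at 8 weeks. MEST, a hydrolase-like protein, read 376.7 and 419.2 against 304.9 and 322.6, while its other probe sets read 156.0 and 171.5 against 154.7 and 145.8, and 65.7 and 123.6 against 70.0 and 71.0. The higher ones were NAP1L5 and NNAT, and the second probe set of NNAT was lower, at 68.9 and 47.5 against 43.0 and 29.3.

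Inhibitors of proteases were among the genes with the widest gaps in both directions. PTI, a Kunitz inhibitor of trypsin, read 140.0 and 110.6 at 2 weeks against 14.0 and 19.3 at 8 weeks, which is below the bacterial controls. SERPINI1, the inhibitor neuroserpin, read 247.1 and 97.8, then 405.7 and 479.2, then 666.9 and 645.9 (1.96 ± 0.34). SLPI, an inhibitor of leukocyte elastase, read 163.4 and 131.4, then 312.2 and 215.7, then 349.5 and 634.3 (1.58 ± 0.31). PCSK1N, an inhibitor of prohormone convertases, read 447.2 and 578.2, then 899.8 and 1002.6, then 1085.1 and 1046.6 (1.04 ± 0.22). All 3 were gradual. TIMP1, an inhibitor of matrix metalloproteinases, was lower, from 374.3 and 484.8 to 234.1 and 203.3 (-0.92 ± 0.23), and its second probe set read 334.6 and 404.2 against 176.8 and 178.1. MMP2, a gelatinase, was lower as well, at 412.8 and 497.8 against 300.4 and 263.7. The list of 27 proteases and inhibitors had 6 higher and 8 lower (22.2% and 29.6%, beside 14.9% and 23.3% of all genes). Its median was -0.09 (0.05 without 2wk replicate 2 and -0.22 without 2wk replicate 1).

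Matrix genes of the interstitium and of the basement membrane were counted apart, and the difference between these lists was not tested. MFAP2, a glycoprotein of elastic microfibrils, read 692.8 and 1180.7 at 2 weeks, then 469.3 and 406.0, then 279.7 and 304.8 at 8 weeks (-1.58 ± 0.27). TNXB, COL12A1 and PRELP, which link or decorate collagen fibres, were lower with differences of -0.92, -0.86 and -0.86. In all 14 of 37 interstitial matrix genes were lower (37.8% against 23.3% of all genes) and 3 higher, with a median of -0.19 (-0.08 without 2wk replicate 2 and -0.35 without 2wk replicate 1). Basement membrane genes had 4 of 15 higher and 3 lower (26.7% and 20%, beside 14.9% and 23.3% of all genes). Their median was 0.04 (-0.04 without 2wk replicate 2 and 0.01 without 2wk replicate 1). COL18A1, the collagen that yields endostatin, had replicates that nearly coincided, at 152.4 and 152.8, then 236.1 and 240.2, then 317.7 and 296.8 (0.94 ± 0.22). The perlecan gene HSPG2 was lower, at 143.9 and 119.1 against 80 and 90.8.

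Vessel markers had the highest share of lower genes among lists of 10 or more. Of 29 measured endothelial markers 17 were lower (58.6% against 23.3% of all genes) and 1, the platelet and vessel protein MMRN1, was higher, with a median of -0.36. CD93, a receptor of endothelial cells, read 122.9 and 163.0 at 2 weeks against 73.1 and 65.3 at 8 weeks (-0.89 ± 0.25). SOX18, a transcription factor of vessels, was gradual, from 114.4 and 130.6 over 78.8 and 99.6 to 64.7 and 76.9 (-0.68 ± 0.24). PECAM1, an adhesion protein of endothelium, read 119.0 and 109.6 against 65.1 and 73.8, and its second probe set read 55.8 and 83.7 against 28.5 and 56.2 with overlap. The water channel AQP1 read 40.4 and 55.3 against 8.9 and 13.3, below the bacterial controls at 8 weeks. THBD, the thrombin receptor thrombomodulin of endothelium, which was not on the list, read 324.8 and 391.8, then 255.7 and 219.5, then 178.5 and 153.0 (-1.04 ± 0.23). Summed over the 29 genes, the 2-week signals were 4007.4 and 3940.6 and the 8-week ones 2986.8 and 3038.5, so the ages did not overlap in the sum. Without 2wk replicate 2, 23 of 29 were lower (79.3%, beside 35.1% of all genes in that comparison). The median was -0.46 without 2wk replicate 2 and -0.31 without 2wk replicate 1.

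Markers of other cell types differed by age or in 1 array. Leukocyte markers were lower in 15 of 40 (37.5%, beside 23.3% of all genes) and higher in 0, with a median of -0.54. But the list's mean relative to its average reached 0.63 in 2wk replicate 2, while the other 5 arrays lay between -0.25 and 0.06. Summed over the 40 genes, the 2-week signals were 6531.0 and 12677.7 and the 8-week ones 6528.9 and 6026.9. The list's median was -0.07 without 2wk replicate 2 and -0.91 without 2wk replicate 1. Without 2wk replicate 2, 10 were higher and 16 lower (25% and 40%, beside 35.1% each way over all genes in that comparison). CD14, the monocyte co-receptor for lipopolysaccharide, read 61.1 and 109.2 at 2 weeks against 30 and 21.7 at 8 weeks. CD3E, a T cell receptor chain, read 176.4 and 234.9 against 143.3 and 114.4. The dimmer probe set of the leukocyte marker PTPRC ran the other way without overlap, at 38.8 and 53.8 against 80.2 and 82.2. Skeletal muscle markers were lower in 4 of 7 (57.1%, beside 23.3% of all genes). TNNC1 read 62.7 and 228.9 against 37.3 and 35.7, and CKM read 977.1 and 1123.8 against 737.7 and 802.1. The globin HBB read 12.5 and 317.9 at 2 weeks against 46.6 and 51.1 at 8 weeks, so that 2wk replicate 2 was the highest of the 4. S100B, a calcium-binding protein of glia and other cells, was higher, at 1350.5 and 1380.5 against 2310.0 and 1891.2. It was 1 of 4 measured nerve and glia markers (25%, beside 14.9% of all genes), and the other 3 overlapped. The median of that list was -0.18 (0.04 without 2wk replicate 2 and -0.26 without 2wk replicate 1). The part of these cell types in the other differences was not tested.

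**Figure D4:**
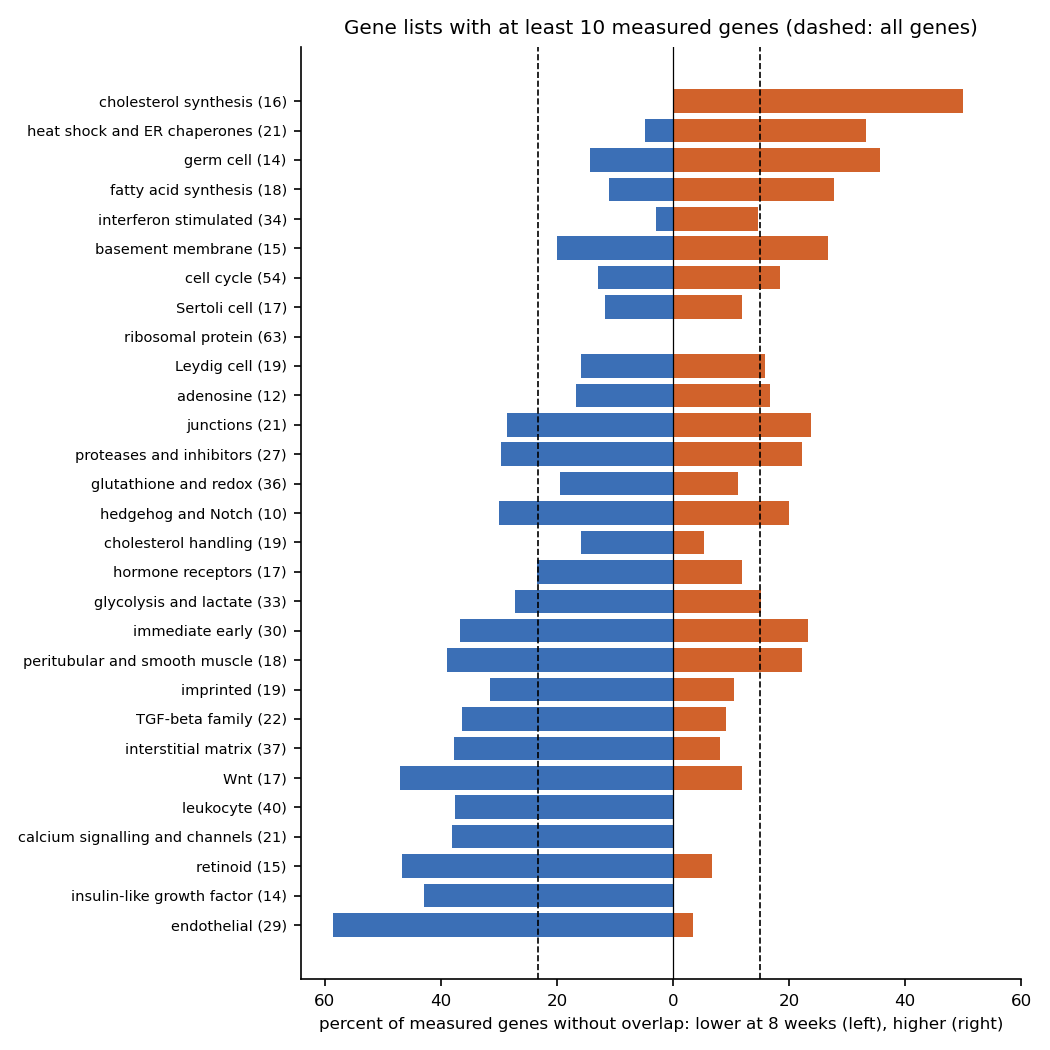
Percent of the measured genes of each list (their number in brackets) whose arrays did not overlap between 2 and 8 weeks, lower at 8 weeks to the left in blue and higher to the right in orange; dashed lines mark 23.3% and 14.9%, the shares among all 7084 genes. Cholesterol synthesis extends farthest to the right (50%) and endothelial markers farthest to the left (58.6%).

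Peritubular and smooth muscle markers were mixed, with 4 of 18 higher and 7 lower (22.2% and 38.9%, beside 14.9% and 23.3% of all genes). Their median was -0.19 (-0.01 without 2wk replicate 2 and -0.29 without 2wk replicate 1). MYH11, the smooth muscle myosin, read 95.0 and 88.9 against 121.4 and 108.4, while ACTA2, smooth muscle actin, overlapped. PDGFRB, a receptor of pericytes, read 58.3 and 63.9 against 35.5 and 43.9 with both 4-week arrays in between.

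Immediate early genes, which respond to growth factors and stress within minutes, differed in both directions. EGR1, a zinc finger transcription factor, read 339.2 and 413.8 at 2 weeks, then 234.7 and 189.3, then 126.9 and 112.8 at 8 weeks (-1.53 ± 0.23). Its second probe set read 80 and 91.9, then 70.4 and 83.5, then 19.5 and 22.4, below the bacterial controls at 8 weeks and with the 4-week arrays near those of 2 weeks. FOS and FOSB, subunits of the AP-1 factor, read 43.5 and 59.0 against 22.3 and 23.7, and 46.2 and 55.0 against 21.4 and 25.9, under the bacterial controls at 8 weeks. IER2, another early gene, read 315.1 and 385.1 against 222.2 and 157.9, with its second probe set at 77.2 and 90.3 against 38.2 and 47.8. NR4A1, an orphan nuclear receptor that also responds to luteinizing hormone in Leydig cells, went the other way, from 32.8 and 27.5 over 33.2 and 38.8 to 74.0 and 83.3 (1.04 ± 0.26). The AP-1 subunit JUN read 334.1 and 253.7 against 369.0 and 515.0, and the phosphatase DUSP1 read 101.4 and 135.0 against 168.4 and 181.0. Of 30 measured members 11 were lower and 7 higher (36.7% and 23.3%, beside 23.3% and 14.9% of all genes). Their median was -0.13 (0.01 without 2wk replicate 2 and -0.21 without 2wk replicate 1).

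Genes of extracellular signalling included several of the widest gaps. NT5E, the ectoenzyme CD73 that makes adenosine from AMP, was gradual and closely replicated, at 49.6 and 45.0, then 92.5 and 97.7, then 186.0 and 159.1 (1.57 ± 0.23). Its dimmer probe set read 43.6 and 15.3, then 66.0 and 75.8, then 89.7 and 59.6, with no 4-week array inside its narrower gap. Of the other adenosine genes, the kinase ADK was higher and the transporter SLC29A1 and the ectonucleotidase ENTPD1 were lower, the first pair with gaps of 0.10 and 0.06 and ENTPD1 with both 8-week arrays (12.2 and 22.9) below the bacterial controls. The Wnt ligand WNT2B was lower and gradual, at 137.8 and 140.6, then 105.3 and 86.3, then 69.2 and 67.4 (-0.88 ± 0.23), and its second probe set read 53.7 and 76.7 against 28.5 and 32.5. In the Wnt list 8 of 17 were lower and 2 higher (47.1% and 11.8%, beside 23.3% and 14.9% of all genes). The median of that list was -0.20 (-0.08 without 2wk replicate 2 and -0.28 without 2wk replicate 1). TGFB3, a growth factor of the TGF-beta family, was gradual, at 79.8 and 87.1 against 51.5 and 56.3 (-0.51 ± 0.24). That family had 8 of 22 lower (36.4% against 23.3% of all genes) and 2 higher, with a median of -0.16 (-0.04 without 2wk replicate 2 and -0.29 without 2wk replicate 1). Of 10 hedgehog and Notch genes 3 were lower and 2 higher (30% and 20%, beside 23.3% and 14.9% of all genes). Among the lower was BOC, a hedgehog co-receptor, at 85.0 and 83.0 against 57.7 and 49.5.

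ABCC8, the sulfonylurea receptor of ATP-sensitive potassium channels, read 783.0 and 1109.0 at 2 weeks against 207.8 and 386.8 at 8 weeks (-1.66 ± 0.30), and its 4-week values of 323.5 and 354.2 lay within the 8-week range. KCNJ8, a pore subunit that pairs with such receptors, read 89.2 and 102.9 against 70.7 and 69.6. Of 21 genes for calcium signalling and channels 8 were lower (38.1% against 23.3% of all genes) and 0 higher, with a median of -0.09 (-0.12 without 2wk replicate 2 and -0.22 without 2wk replicate 1). Outside the list, the muscarinic receptor CHRM4 (62.7 and 44.4 against 14.9 and 5.7), the urotensin receptor UTS2R (51.5 and 65.3 against 17.0 and 11.4) and, in it, the sodium channel subunit SCNN1A (36.5 and 53.5 against 15.9 and 6.9) lay below the bacterial controls at 8 weeks. Among 17 hormone receptors 4 were lower (23.5%, near the 23.3% of all genes) and 2 higher. PPARD, a nuclear receptor for fatty acids, was lower and gradual, at 117.9 and 167.6, then 102.1 and 103.2, then 76.3 and 76.1 (-0.77 ± 0.24). NR1D1, a repressor of the circadian clock, was lower as well, at 50.2 and 57.2 against 14.8 and 23.3, below the bacterial controls.

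Of 54 cell cycle genes 10 were higher and 7 lower, with a median of -0.09 that changed sign with 1 array (0.05 without 2wk replicate 2 and -0.26 without 2wk replicate 1). RPRM, a p53 target that holds cells in G2, read 123.7 and 163.5, then 86.4 and 51.8, then 41.1 and 30.5 (-1.62 ± 0.28). TPX2, a spindle assembly factor, was higher, at 136.5 and 124.0 against 194.6 and 254.3 (0.71 ± 0.24), and its second probe set read 76.0 and 50.5 against 92.5 and 124.7. KIF4A, a spindle kinesin, was lower, at 81.4 and 89.1 against 67.7 and 48.1. CDK1, the mitotic kinase, read 84.3 and 77.1 against 105.2 and 162.5. CDK2, the S phase kinase, was lower, at 87.4 and 83.2 against 54.0 and 52.0, and so was CCND3, a G1 cyclin, at 204.4 and 236.5 against 166.9 and 138.5.

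Metabolic and stress lists held few large differences. Among 33 genes of glycolysis and lactate 5 were higher and 9 lower (15.2% and 27.3%, near the 14.9% and 23.3% of all genes). Their median was -0.19 (0.10 without 2wk replicate 2 and -0.38 without 2wk replicate 1). SLC16A1, a lactate transporter, read 123.0 and 105.1 against 171.1 and 150.1, and PFKFB4, a regulator of glycolysis, read 37.7 and 20.9 against 74.8 and 63.4. TBC1D4, a regulator of glucose transporter traffic, read 159.8 and 100 against 185.3 and 539.0, with 8-week arrays that disagreed. Glutathione and redox genes had 4 of 36 higher and 7 lower (11.1% and 19.4%). Their median was -0.08 (0.10 without 2wk replicate 2 and -0.26 without 2wk replicate 1). DPEP1, a dipeptidase that degrades glutathione conjugates, was lower, at 219.4 and 253.9, then 141.8 and 95.2, then 98.0 and 61.1 (-1.43 ± 0.28), and MGST1, a microsomal glutathione transferase, was higher, at 216.9 and 261.1 against 335.8 and 511.1. Chaperones had 7 of 21 higher and 1 lower (33.3% and 4.76%). Their median was 0.08 (0.17 without 2wk replicate 2 and -0.17 without 2wk replicate 1). HSP90B1, the chaperone of the endoplasmic reticulum, read 4050.9 and 2684.2 against 5289.6 and 4930.8. HSPA1A was the lower one by its brightest probe set, at 1095.8 and 1215.4 against 744.5 and 870.2, while all 5 of its other probe sets overlapped. DNAJB11, a cochaperone of the endoplasmic reticulum outside that list, read 189.3 and 183.4, then 172.0 and 131.2, then 79.0 and 76.4 (-1.11 ± 0.23).

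The remaining genes with wide gaps came from many functions. KLHL23, a kelch protein, read 247.4 and 72.7 at 2 weeks against 599.6 and 592.4 at 8 weeks (2.00 ± 0.41). IGSF1, a membrane protein whose loss in people gives central hypothyroidism with enlarged testes, read 41.2 and 68.0, then 123.6 and 124.3, then 162.9 and 147.3 (1.30 ± 0.25). CCDC69, a coiled-coil protein, read 152.3 and 159.3, then 279.8 and 356.4, then 364.5 and 421.4 (1.25 ± 0.23). PLEKHG1 read 59.3 and 81.2, then 141.6 and 120.1, then 243.4 and 185.3 (1.42 ± 0.25). These 4 genes were gradual. C5H12orf75 was higher by its brightest probe set, at 83.2 and 80.5 against 261.4 and 243.7, whereas its other one overlapped (54.0 and 69.6 against 60.9 and 151.5). NUDT4, a phosphatase of inositol pyrophosphates, was higher with both, at 297.9 and 228.4 against 604.1 and 636.2 and at 103.0 and 77.3 against 158.7 and 149.4.

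NDRG4, of the N-myc downstream regulated family, read 30 and 33.1 at 2 weeks against 97.1 and 93.5 at 8 weeks (1.23 ± 0.24), and had reached that level by 4 weeks (99.8 and 117.4). CA3, a carbonic anhydrase, did so only after 4 weeks, at 60 and 55.4, then 58.6 and 28.5, then 124.4 and 137.1 (0.99 ± 0.29). OLR1, a scavenger receptor for oxidised lipoprotein, was gradual, at 32.5 and 26.4, then 62.9 and 44.0, then 110.9 and 67.6 (1.18 ± 0.29). ARFGAP3, a regulator of Golgi traffic, was higher with both probe sets, at 607.8 and 583.4 against 1060.4 and 1005.2 and at 482.6 and 618.0 against 909.4 and 1026.6. SH3BGRL2 read 67.8 and 40.3 against 140.3 and 118.0. TMEM130 read 10.9 and 12.8 at 2 weeks, under the bacterial controls, and 43.4 and 57.7 at 8 weeks.

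On the lower side, LRRN2, a leucine-rich repeat protein of neurons, was gradual, at 163.5 and 219.4, then 99.0 and 108.4, then 87.0 and 83.2 (-1.02 ± 0.24). GALNT16, which starts O-linked sugar chains, read 113.7 and 92.7 against 45.7 and 46.5, while its other probe set overlapped. CHI3L1, a chitinase-like secreted protein, read 58.0 and 109.8 against 25.2 and 22.8. The folate enzyme ALDH1L1 (44.4 and 54.7 against 9.9 and 14.0), SDSL (51.6 and 74.7 against 20.8 and 22.4), MS4A18 (70.5 and 60 against 25.6 and 24.9) and LOC100300510 (77.7 and 59.2 against 13.7 and 3.2) also lay below the bacterial controls at 8 weeks. So did ATP13A2, a lysosomal ATPase, by its brightest probe set (64.5 and 84.5 against 26.3 and 8.0), although both of its others overlapped between the ages. Of the 25 genes with the widest gaps, 10 lower ones and 1 higher one thus had an age with no array above the bacterial controls.

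Where a gene had several probe sets, most agreed on direction. The 300 genes called higher by their brightest probe set had 391 others, of which 301 ran the same way, 149 of them without overlap, and 34 ran the opposite way without overlap. For the 351 lower genes, 343 of 436 others ran the same way, 174 of them without overlap, and 16 ran opposite without overlap. Among genes with a difference of at least 1 log2 unit, 17 of 18 others ran the same way on the higher side and 5 of 6 on the lower side.

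Genes of immunity and translation are given as totals. Of 9 class II histocompatibility genes 0 were higher and 1 was lower (11.1%), beside 14.9% and 23.3% of all genes. The lower one, BOLA-DQA5, read 656.9 in 2wk replicate 2 while the other 5 arrays lay between 9.1 and 22.1. Of 34 interferon-stimulated genes 5 were higher and 1 lower (14.7% and 2.94%). The list's mean was 0.57 in 8wk replicate 1 against -0.22 in 8wk replicate 2. RSAD2, the antiviral protein viperin, read 274.5 and 64.8 on these arrays. Of 63 cytosolic ribosomal protein genes 0 were higher and 0 lower, with a median of -0.04, whereas quantile normalization gave 11 higher and 14 lower.

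Whether a difference built up gradually was read from the 4-week arrays. Both lay inside the gap for 165 of the 1438 higher probe sets (11.5%) and 199 of the 2103 lower ones (9.46%). Among probe sets with a gap of at least 0.5, both lay inside for 32 of 66 higher and 46 of 115 lower. A second measure places the 4-week mean on a line from 0, the 2-week mean, to 1, the 8-week mean. Its median was 0.633 for higher and 0.567 for lower probe sets. It fell between 0.25 and 0.75 for 595 higher (41.4%) and 769 lower probe sets (36.6%). It lay past the 8-week mean for 264 higher (18.4%) and 411 lower (19.5%), and on the far side of the 2-week mean for 165 (11.5%) and 356 (16.9%). A place between 0 and 0.25 was called late. Among differences of at least 1 log2 unit, 10 of the 42 lower and 2 of the 54 higher probe sets were late. Another 3 lower and 1 higher had a place below 0. Of the late lower ones, PTI, AQP1, ALDH1L1, CHRM4, SCNN1A and the second EGR1 probe set had both 8-week arrays below the bacterial controls. So did LOC100300510 and RNF216 among those below 0. The place of such probe sets rests on an 8-week end not told from background. GJA1, NT5E, SERPINI1, EGR1, MFAP2 and IGF2 had both 4-week arrays inside the gap by their brightest probe sets, but the second probe sets of NT5E and IGF2 had none there and that of EGR1 had 1. NDRG4, CRABP1 and ABCC8 had their 4-week arrays at or past the 8-week level, and CRABP2, IGFBP3 and PTI had a place of at most 0.22 (0.31 by the second probe set of IGFBP3). The place shares the 2-week and 8-week arrays with the difference itself and was given no test.

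**Figure D5:**
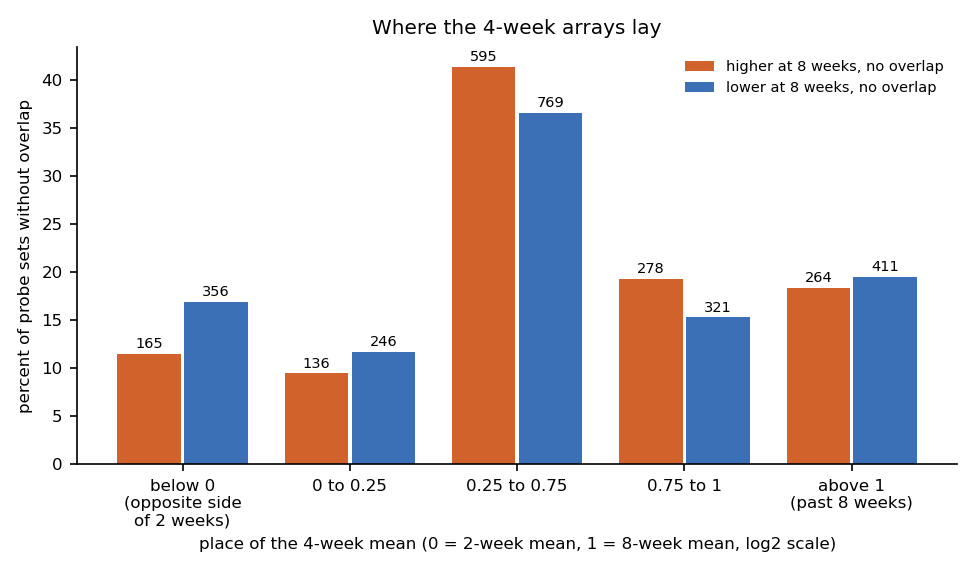
Place of the 4-week mean between the 2-week mean (0) and the 8-week mean (1) on the log2 scale, as the percent of the 1438 higher (orange) and 2103 lower (blue) probe sets without overlap; numbers above the bars count probe sets. The range from 0.25 to 0.75 holds the most in both directions, 595 and 769.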

How the data were processed

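Whole-testis RNA from calves aged 2, 4 and 8 weeks was measured on 6 arrays, 2 per age. Per the submitters' processing notes the deposited signal intensities came from GCOS 1.4.0.036; the scaling target is not given in the sources used here. Array median signals lay between 46.5 and 52.5, and the number of arrays limits the precision. Of 24128 probe sets, 112 controls were left out. Of the rest, 13292 had 1 gene symbol in the platform annotation, 86 several and 10638 none, and 13263 of the named ones matched the ARS-UCD2.0 gene table.

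Intensities as deposited by the authors were turned to log2(signal + 16), with no further normalization. Probe sets with a mean over 30 (14626) were fitted in limma 3.58.1 (R 4.3.3) with 1 coefficient per age over the 6 arrays, an intensity trend and Benjamini-Hochberg adjustment, tested on simulated data first. Fold sizes understate changes of dim genes. Genes were drawn from the 25 with the widest gap in each direction, up to 6 per list by gap, and a panel of 25 genes. The panel held markers of testis and of other cell types, and 23 of them had a named probe set. Not every gene so drawn is given above, and SOX9, DDX4, CD68, HBA and ADIPOQ of the panel are left out. DHCR7, DUSP1, JUN, MAEL, MMRN1, MVD, MVK, NNAT, PMVK and TM7SF2 fall outside this rule and were chosen after their values were seen. The 35 gene lists and the comparison were chosen with earlier results of these data known. A size was not read where both arrays of an age lay at or below 28.1, the highest of 27 Bacillus control probe sets. Alternatives were other pseudocounts, filters, normalization, fits and left-out arrays.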

Additional observations from a re-analysis of the deposited data

How the results depend on the processing

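The count of probe sets with a limma adjusted p under 0.05 was 0 as reported, 1 with a pseudocount of 64, and 8 (5 higher and 3 lower) with the replicate number as a block, among them ABCC8, SERPINI1, PTI and NT5E. The replicate numbers share only a number: deviations of same-numbered arrays correlated at 0.197 (2 and 4 weeks), -0.006 (2 and 8 weeks) and -0.054 (4 and 8 weeks). The count stayed at 0 with a pseudocount of 1, quantile normalization, no filter, a minimum of 100, the brightest 60% of probe sets, the 4 arrays alone, no intensity trend and array weights. Leaving out 1 array gave 0 to 1917, the highest without 2wk replicate 1. At an unadjusted p under 0.05, the 1006 probe sets became 1582 with no filter and 542 with a minimum of 100, and 433 to 4704 with 1 array left out. Probe sets without overlap numbered 3192 lower with no filter, and 952 higher and 1151 lower with a minimum of 100; leaving out 1 array of the 2 ages gave 2278 to 3209 higher and 3127 to 4768 lower. The causes were not tested, beyond fewer or more probe sets and arrays entering. The genes named by the rule were recomputed with both other pseudocounts, quantile normalization, the block and each 2-week or 8-week array left out. For genes without overlap, only quantile normalization could change the direction, and 0 reversed under it. The other settings cannot reverse such genes, so nothing is drawn from their kept direction. Genes that overlapped were not scored for a reversal. Under the block 4 passed the threshold. Under quantile normalization 34 of the 35 list medians kept their sign, and the largest shift was 0.068; leaving out an array at 2 weeks was added after seeing the data for the lists. With 2 arrays per age, differences smaller than the spread at 2 weeks could not be resolved, and signals near 28.1 were not told from background.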

Other observations

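Probe sets without a gene symbol held the widest gap of all, and they were chosen here after their values were seen. Of 5377 tested with no symbol or with several, 974 (18.1%) were higher at 8 weeks without overlap and 1012 (18.8%) were lower. Bt.29775.1.S1_at read 567.9 and 484.6 at 2 weeks, then 297.7 and 425.6, then 58.4 and 108.8 at 8 weeks, with a difference of -2.49 ± 0.29 (SE, n = 2 per age) and the smallest adjusted p of the limma fit, 0.0758. All arrays of this probe set lay in order of age. Bt.18855.1.A1_at read 125.8 and 65.3, then 401.0 and 234.7, then 477.1 and 598.3. Bt.19124.1.A1_at read 19.5 and 66.5, then 275.5 and 473.5, then 736.0 and 263.8, so most of its difference of 3.08 was present by 4 weeks.

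Several genes had a mean difference that rested on 2wk replicate 2 or was widened by it, also chosen after their values were seen. ARMCX3, a mitochondrial protein, read 366.5 and 98.3 at 2 weeks and 400.9 and 448.3 at 8 weeks. PPM1K, the phosphatase that activates branched-chain amino acid breakdown, read 195.7 and 47.9 against 272.4 and 219.2. The splicing factor gene SFPQ read 2189.2 and 428.8 against 2309.6 and 2034.7, which overlapped. In each of these 3 genes 2wk replicate 1 lay near the 8-week arrays. MGP, an inhibitor of calcification, was higher without overlap by its dimmer probe sets. These read 412.7 and 60.9 against 711.0 and 726.7, 252.4 and 66.6 against 428.9 and 451.0, and 89.7 and 21.7 against 125.3 and 137.1. In them 2wk replicate 1 also lay below both 8-week arrays, with gaps of 0.76, 0.73 and 0.42. Its brightest probe set overlapped, at 3287.5 and 4187.4 against 4450.9 and 4088.9. The dimmer probe set of CTSW, a protease of cytotoxic lymphocytes, read 122.7 and 592.4 against 120.5 and 100.8, and its brightest one 819.9 and 1862.7 against 796.0 and 562.6. What set this array apart was not tested.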
